A study of Mus musculus and Homo sapiens with 12 samples.

Results

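THE1 and MST elements are 2 groups of long terminal repeat (LTR) elements of the ERVL-MaLR family, the mammalian apparent LTR retrotransposons. They were taken from the human table of repeat elements as every row of that family whose subfamily name began with THE1 or MST, a choice that used no measured value. The rule found 82059 rows among the 3919868 human rows, 42429 of them THE1 and 39630 MST, in 24 subfamilies. The mouse table of the same series held 0 such rows among 3158171, and the remaining 198092 human ERVL-MaLR rows served as the comparison.

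The measurement was methylated RNA immunoprecipitation and sequencing (meRIP–seq) of RNA bound to chromatin (caRNA) with an antibody against 5-methylcytosine (m5C). The cells were K-562, a human chronic myeloid leukaemia line, as unmodified wild type (WT, n = 3 libraries) and as a knockout of TET2 (KO, n = 3 libraries). The cell-line field of the KO libraries reads K563, but their titles read K562, and the field was taken as mistyped. The KO cells were made before this study and given to it, so clonal origin cannot be told apart from the loss of TET2, and the study calls its replicates biological without saying whether each was a separate culture. P-values measure the spread between these libraries. Only the precipitated RNA was counted, so a difference between KO and WT can be one of RNA amount, of m5C enrichment or of both, always against the background of all other repeats. The tables list repeats only, so TET2 RNA and K-562 marker genes were not analysed here.

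MaLR elements carry no complete set of genes of their own and were copied with proteins of ERVL-type retroviruses. Most copies are solitary LTRs, left when the LTRs at both ends of an element recombined, and rows whose names end in -int are the internal stretch between LTRs. THE1 LTRs are among the younger members of the family, MST LTRs are older, and MLT1 LTRs are older still. A THE1B LTR is known as the start of CSF1R transcripts in Hodgkin lymphoma. TET2 oxidises methylated cytosine in DNA and RNA and is often mutated in myeloid leukaemia.

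The rows with most counts had close copies elsewhere in the genome, and 3 sets of copies recur in the results below. The first set is an MSTA-int row on chromosome 2 with the highest mean count among rows with counts in at least 4 libraries. It spans chr2:130675902-130676903 on the plus strand of hg38, lies outside annotated genes at 3147 bases from the pseudogene CYP4F30P, and its first 180 bases are shown in lower case. A second copy at chr2:131282551-131283549 has the same first 180 bases and is 99.2% identical over its length.
MSTA-int, chr2:130675902-130676081, plus strand: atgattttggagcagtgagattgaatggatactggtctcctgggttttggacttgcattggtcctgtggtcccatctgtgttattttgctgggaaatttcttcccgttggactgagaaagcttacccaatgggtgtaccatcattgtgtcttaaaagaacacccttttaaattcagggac

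The second set is made of MSTD rows in paralogous genes. SRGAP2B, SRGAP2C and SRGAP2D are duplicated relatives of SRGAP2, a gene that acts in neuronal maturation, and each holds 1 MSTD row in an intron. The row in SRGAP2B (chr1:145045007-145045551, minus strand) is 99.4% and that in SRGAP2C (chr1:121234789-121235325, plus strand) 96.5% identical to the row in SRGAP2D (chr1:144022411-144022957, plus strand). The third set is made of THE1B rows near chromosome ends. A row on chromosome 5 (chr5:181353203-181355482, plus strand) and a row on chromosome 1 (chr1:698442-700723, minus strand) lie at 183 kb and 698 kb from the end and are 99.5% identical over the 2280 bases of the shorter row.

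Few of the 82059 rows were measured. Counts above 0 in any library were found for 4402 rows, at least 10 counts over the 6 libraries for 581, and at least 50 for 350. These 350 rows, 0.427% of the members, held 91.0% of the 133549 counts. Library totals over the repeat classes DNA, LINE, LTR and SINE ranged from 498145 to 827341 counts. Of these, THE1 and MST rows received between 16309 and 37394, the highest value being that of KO 3.

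MST rows took more of the counts than THE1 rows in every library. The MST share was 2.32%, 2.96% and 2.41% in WT and 1.61%, 2.21% and 3.36% in KO. The KO libraries lay both below and above the WT range, with means of 2.56% ± 0.348 in WT and 2.39% ± 0.886 in KO (SD, n = 3). The THE1 share was 0.527%, 0.867% and 0.506% in WT and 1.01%, 0.689% and 1.16% in KO. KO 1 and KO 3 lay above all WT libraries while KO 2 lay below WT 2, with means of 0.633% ± 0.202 and 0.954% ± 0.242 (SD, n = 3). The log2 ratio of KO to WT means was 0.59 for THE1 and −0.10 for MST. The rest of the ERVL-MaLR family, all of it MLT1 among the tested subfamilies, had means of 1.83% ± 0.424 for WT and 2.40% ± 0.557 for KO (SD, n = 3), whose log2 ratio was 0.39.

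Levels differed widely between subfamilies when set per length of annotated sequence, as the mean over 6 libraries of TMM-scaled CPM (counts divided by each library's scaled size) per megabase. MSTA-int stood highest at 12057 CPM per Mb, followed by THE1D-int at 3537, MST-int at 1755, MSTA1 at 1446 and MSTA at 1440. Rows overlapping a member on the opposite strand held 86.2% of MSTA-int, 99.5% of THE1D-int and 61.8% of MSTA counts, so these levels are uncertain. Among the subfamilies with LTR names, THE1B (276), MSTB1 (221), THE1C (220), THE1D (173), MSTB (170) and MSTC (158) lay close together. MSTD stood above them at 575. The place of MSTD rested on WT, with a mean of 2922 CPM in WT against 495 in KO. THE1A (47.6) and MSTB2 (47.3) were lowest among tested subfamilies. Neighbours in this order from MST-int to MSTA, and from THE1B to MSTC, differed by less than the larger SD within a genotype, while every library was higher for MSTA-int than for THE1D-int. Of the 24 subfamilies, 15 passed the filter on low counts. The other 9 were all internal parts, THE1-int, THE1A-int, THE1C-int, MSTA1-int, MSTB-int, MSTB1-int, MSTB2-int, MSTC-int and MSTD-int, with between 0.4 and 65.1 counts in all.

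**Figure D1:**
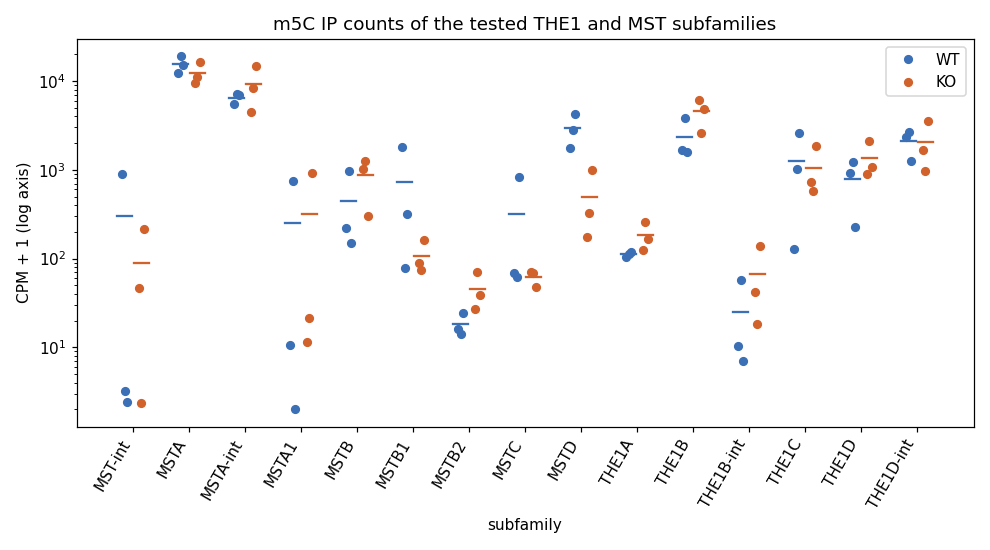
TMM-scaled CPM plus 1 (log axis) of the 15 tested subfamilies in the 3 WT and 3 KO libraries, with a point per library and a bar at each mean. MSTD, MSTB2 and THE1A are the subfamilies whose genotypes do not overlap. MSTC has 1 library far above the others, MST-int is highest in WT 1, and MSTA1 has 1 high library in each genotype.

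KO was compared with WT per subfamily, the question being whether loss of TET2 changed the precipitated RNA of these repeats. None of the 15 tested THE1 and MST subfamilies was called by edgeR's quasi-likelihood test at an adjusted p under 0.05, where 1.05% of the 573 subfamilies tested were called. At an unadjusted p under 0.05 the test gave 1 of 15 (all subfamilies 13.8%). DESeq2's Wald test also called 1, against 12.0% of the 507 subfamilies to which it gave an adjusted p. MSTA1 and MSTC had no such p. In both cases the single subfamily was MSTD. Fitted log2 changes were above 0 for 8 subfamilies and below 0 for 7, with a median of 0.34 against 0.03 over all tested subfamilies and 0.57 over the 34 MLT1 subfamilies. The median was 0.74 for the 6 THE1 and −0.33 for the 9 MST subfamilies. The SE was larger than the fitted change in 7 of the 15.

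**Figure D2:**
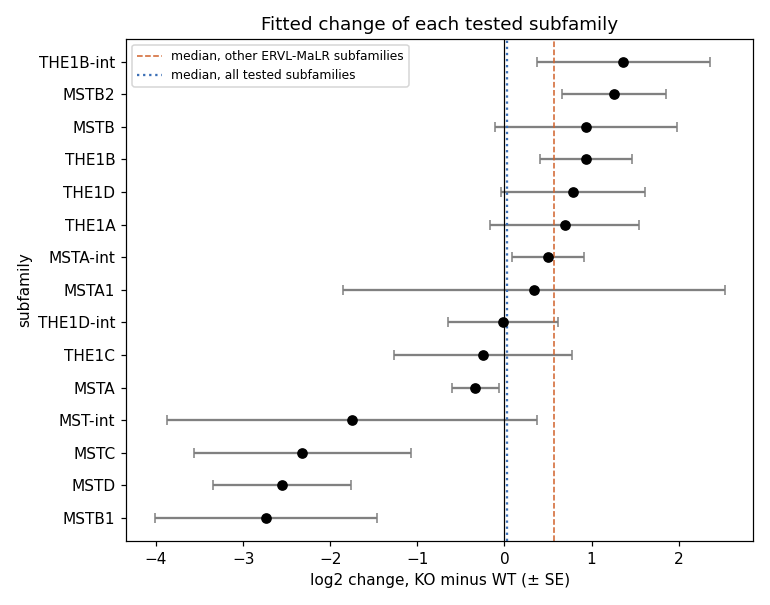
Fitted log2 change, KO minus WT, with its SE for each tested subfamily, and the medians of all 573 tested subfamilies and of the 34 other ERVL-MaLR subfamilies as vertical lines. The error bars of 7 of the 15 cross 0, and MSTD and MSTB1 lie farthest to the left.

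MSTD had the smallest p of the group. Its levels were 1763, 2807 and 4197 CPM in WT and 175, 323 and 986 CPM in KO. Every KO library lay below every WT library. Genotypes did not overlap, in either direction, for 3 of the 15 subfamilies and for 16.8% of all subfamilies tested. The fitted log2 change was −2.56 ± 0.79 (SE), with an edgeR adjusted p of 0.220 and a DESeq2 Wald adjusted p of 0.00223. Leaving out each library in turn gave changes of −3.52 (without KO replicate 3) to −2.14 (without KO replicate 1).

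The MSTD counts came from different rows in different WT libraries. The 3 rows in SRGAP2B, SRGAP2C and SRGAP2D together had 1, 0 and 1976 counts in WT against 4.5, 0.5 and 6.66 in KO, so that 99.4% of their counts fell in WT 3. A pair of rows in the lncRNA gene ENSG00000226043 on chromosome 21 and its alternate contig had 0, 1023 and 1 counts in WT against 0, 0 and 720 in KO. A set of 9 near-identical rows in pseudogene and lncRNA genes, FAM157C and LINC01002 among them, had 764, 194 and 0 counts in WT against 0 in each KO library. Across the 223 MSTD rows with fewer than 50 counts each, the genotypes overlapped: 292, 105 and 146 CPM in WT against 169, 135 and 101 in KO. MSTD rows with 50 counts or more gave 1471, 2702 and 4051 CPM in WT and 5.20, 187 and 886 in KO. The set with most MSTD counts was a different one in each WT library.

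MSTB2 and THE1A were the tested subfamilies without any row of 50 counts or more, and in both the KO libraries lay above the WT libraries. MSTB2 had 15.3, 13.2 and 23.2 CPM in WT and 25.8, 69.1 and 37.7 in KO, a fitted change of 1.26 ± 0.59 (SE) with an edgeR adjusted p of 0.389. It rested on 132.5 counts in 48 rows. THE1A had 103, 113 and 119 CPM in WT and 124, 254 and 167 in KO. Its fitted change was 0.69 ± 0.86 (SE) with an edgeR adjusted p of 0.749. THE1A was also the most evenly spread subfamily, since its 10 highest rows held 28.1% of its counts, against 45.4% for THE1B, 55.4% for MSTA-int, 76.4% for MSTD and 98.4% for MSTA1.

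Other THE1 subfamilies had wide ranges that overlapped between genotypes. THE1B had 1650, 3860 and 1591 CPM in WT and 6093, 2626 and 4899 in KO, a change of 0.94 ± 0.53 (SE, adjusted p = 0.428, edgeR). THE1D had 924, 1219 and 227 CPM in WT and 902, 2108 and 1084 in KO, a change of 0.79 ± 0.83 (SE). THE1C had 127, 1027 and 2601 CPM in WT and 735, 580 and 1860 in KO, a change of −0.24 ± 1.02 (SE). THE1B-int had a change of 1.37 ± 1.00 (SE) on levels of 6.06 to 138 CPM; leaving out WT 2 made it 2.74, and leaving out KO 3 made it 0.29. In all 4 of these subfamilies the genotypes overlapped.

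MSTA and MSTA-int, the subfamilies with most counts under an LTR name and an internal name, had fitted changes of opposite sign. Neither was called. The MSTA rows named below have 1241 to 2654 bases, more than 1 LTR. The 2 names therefore do not cleanly separate LTR from internal sequence. MSTA had 12382, 18898 and 15088 CPM in WT and 9417, 11024 and 16385 in KO, a change of −0.33 ± 0.27 (SE, adjusted p = 0.588, edgeR). MSTA-int had 5440, 7070 and 6967 CPM in WT and 4434, 8403 and 14759 in KO, a change of 0.50 ± 0.42 (SE, adjusted p = 0.592, edgeR). KO 1 was the lowest and KO 3 the highest library for MSTA-int, so the KO range enclosed the WT range, and its change was 0.0010 without KO replicate 3. The difference between these changes was not tested.

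Several MST subfamilies rested on 1 library or on a few rows. MSTB1 had 1797, 77.3 and 317 CPM in WT and 88.8, 72.5 and 160 in KO, with WT 1 far above the rest. MSTC had 68.6, 61.0 and 819 CPM in WT and 69.5, 67.0 and 46.8 in KO, with WT 3 alone high. MSTA1 had 9.76, 747 and 1.02 CPM in WT and 10.4, 20.2 and 930 in KO, with 1 high library in each genotype. These patterns gave fitted changes of −2.74 ± 1.28 for MSTB1, −2.32 ± 1.24 for MSTC and 0.34 ± 2.19 for MSTA1 (SE). Without WT replicate 1 the MSTB1 change was −0.86, and without WT replicate 3 the MSTC change was −0.08. MST-int had 897 CPM in WT 1, 2.23 and 1.43 in the other WT libraries, and 45.4, 1.34 and 216 in KO; its change of −1.75 ± 2.12 became 4.18 without WT replicate 1. MSTB had 218, 979 and 148 CPM in WT and 1019, 1266 and 302 in KO, a change of 0.94 ± 1.04 (SE) that became 2.30 without WT replicate 2 and 0.52 without WT replicate 3.

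The concentration of counts in a few rows went with sequence shared between rows. For each row the share of its 50-base windows that also occur in another THE1 or MST row, on either strand, was computed from hg38. Other rows included those that overlap the same bases and those on alternate contigs. Rows that overlap another member held 54.0% of the counts, so a shared window need not mean a separate copy. The median share was 2.71% for the 77657 rows at 0 counts, 6.05% for rows above 0 and under 10, 46.0% for rows with 10 to under 50, and 97.7% for the 350 rows with 50 or more. At least 90% of windows were shared in 6.88% of rows at 0 counts and in 67.4% of rows with 50 or more. The rows also differed in length, with medians of 375 bases at 0 counts and 1248 bases at 50 or more. Within rows of 201 to 400 bases, close to the length of 1 LTR, the median shared portion was 3.61% at 0 counts and 100% for the 72 rows with 50 or more. The part of read assignment in this pattern was not tested, and the options that gave fractional counts are not stated.

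**Figure D3:**
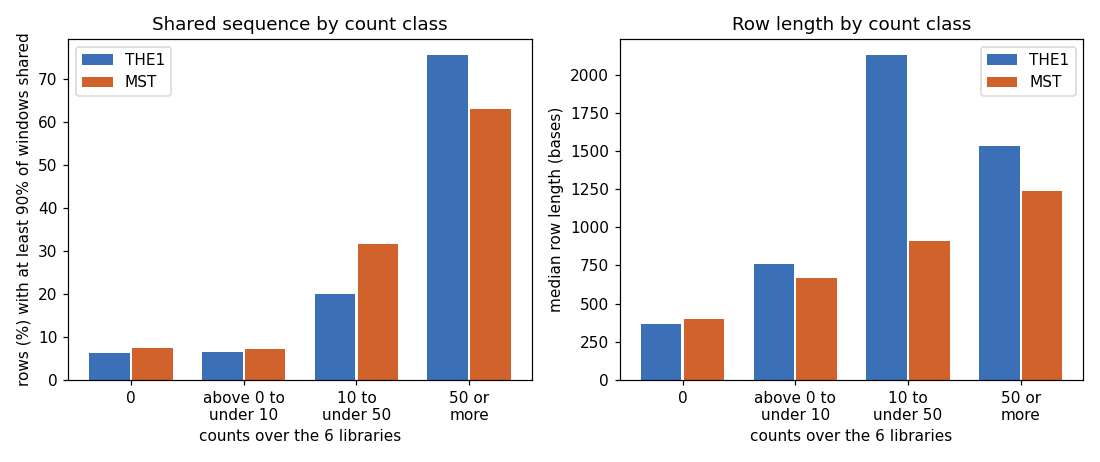
Left, the percentage of THE1 and MST rows with at least 90% of 50-base windows in another member, by counts over the 6 libraries. Overlapping rows count as other members. Right, the median row length in bases. In both groups the shared portion is highest for rows with 50 counts or more, at 75.6% of THE1 and 63.2% of MST rows.

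Base composition varied less than shared sequence, and its differences were not the same at every row length. Cytosines made up a median 23.1% of bases in rows at 0 counts and 20.5% in rows with 50 or more. Within rows of similar length this difference was small. The medians were 23.4% and 23.1% in rows of 201 to 400 bases, 23.8% and 24.3% at 401 to 1000, and 20.3% and 20.2% above. CpG density over all rows was 0.723 per 100 bases at 0 counts and 0.695 at 50 or more. In rows of 201 to 400 bases CpG density was 0.809 per 100 bases at 0 counts and 1.01 at 50 or more. Among LTR rows of 300 to 450 bases, the polyadenylation hexamer AATAAA stood on the element's own strand in 8.26% of 28605 THE1 rows and 32.8% of 24839 MST rows, against 38.8% of 68588 other ERVL-MaLR rows of that length. For rows with at least 10 counts it was 10.0% of 60 THE1 and 22.4% of 67 MST rows. Mean CpG density in these LTR rows was 0.942 per 100 bases for THE1 and 0.742 for MST. In those with at least 10 counts it was 1.05 for THE1 and 1.23 for MST. The GATA motif AGATAA, searched on both strands, was in 23.7% of THE1, 9.49% of MST and 21.4% of other ERVL-MaLR rows, and in 11.7% and 7.46% of the THE1 and MST rows with at least 10 counts.

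Position relative to genes was taken from GENCODE 44. Introns held 45.6% of THE1 and 44.9% of MST rows, and 23.7% and 41.1% of their counts. Exons held 3.32% and 3.45% of rows, and 6.42% and 4.34% of counts. Contigs without annotation (alternate, random and unplaced) held 2.85% of THE1 and 4.25% of MST rows but 29.9% and 21.4% of counts. For MST, rows in the same orientation as a gene were 18.5% of rows with 41.5% of counts, and rows against it were 27.1% of rows with 3.67% of counts. For THE1, rows in the same orientation as a gene were 20.9% of rows with 18.8% of counts, and rows against it were 25.2% of rows with 10.9% of counts. The strand setting of the counting is not stated, so reads from an element and from the opposite strand cannot be told apart.

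Rows also overlapped one another. Of the members, 2668 overlapped another THE1 or MST row, and these held 54.0% of the counts. The overlap was nearly complete for THE1D-int, where rows overlapping a member on the opposite strand held 99.5% of the counts. Such rows also held 86.2% of MSTA-int and 61.8% of MSTA counts. The levels of THE1D-int, MSTA-int and MSTA are therefore uncertain as measures of those subfamilies. THE1D-int had 2317, 2686 and 1262 CPM in WT and 1667, 976 and 3563 in KO, a change of −0.01 ± 0.63 (SE). Rows listed without consensus positions were 12039 of the members with 66.1% of the counts.

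Many counts came from clusters that hold both MSTA and MSTA-int rows. Members with at least 10 counts were joined into clusters when within 100 kb of each other, and lone rows were kept. Of the 317 clusters, 25 held rows of both subfamilies, with 61.9% of all THE1 and MST counts. The 7 clusters with most counts were all of this kind and held 44.7%, the chromosome 13 array and its counterpart on an alternate contig included. Genotypes did not overlap for 15 of the 317 clusters (4.73%) and for 3 of the 20 with most counts. Since lone rows count among the 317, the first share is not a like background for arrays of many rows. The clusters were chosen on these counts and are given as a description. The first cluster spans chr9:40294320-40321553 and holds 40 rows, 10 of MSTA, 9 of MSTA-int and 18 of THE1D-int, with part of it in the lncRNA gene ENSG00000240240. Its long MSTA rows start at steps of 1.72 to 5.62 kb with a median of 3.01 kb. The array had 1517, 2422 and 1488 CPM in WT and 2208, 3698 and 6169 in KO, with WT 2 above KO 1. A copy at chr9:66054752-66081986 had 1596, 2415 and 1042 CPM in WT and 1864, 3320 and 3514 in KO, again with WT 2 above KO 1.

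Within the first array the counts sat on few rows and moved between libraries. The MSTA row at chr9:40302969-40305254 had 246, 467 and 0.27 counts in WT against 492, 858 and 502 in KO. The adjoining MSTA row at chr9:40305593-40308246 had 99.5, 136 and 48.0 counts in WT against 162, 295 and 1713 in KO, a fitted change of 3.00 ± 1.28 (SE, adjusted p = 0.662, edgeR). The next MSTA-int row at chr9:40308254-40309368 had 0 counts in each WT library and 186, 47.1 and 21.8 in KO, with an edgeR adjusted p of 0.202 and a DESeq2 Wald adjusted p of 1.23e-05. All of its 50-base windows occur in another member row, rows that overlap it included. Of the 18 THE1D-int rows in the array, 15 had 0 counts.

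**Figure D4:**
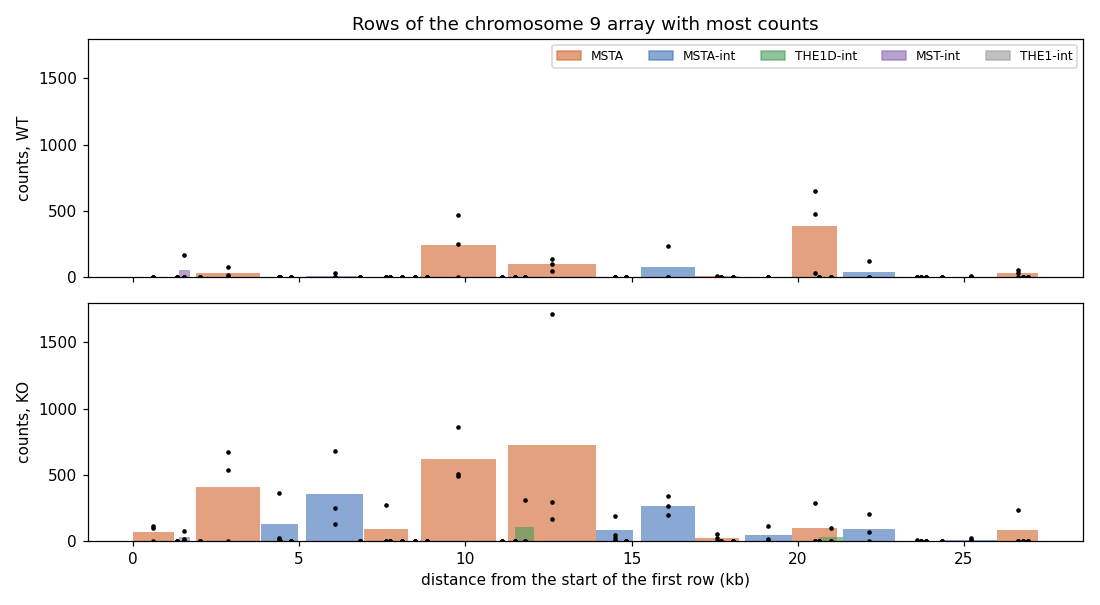
Counts in the rows of the chromosome 9 array with most counts, against distance from the start of the first row in kb; bars are means of 3 libraries drawn over the span of each row, and points are single libraries, WT above and KO below. A few MSTA and MSTA-int rows carry the counts, and 1 KO library reaches 1713 in a single row.

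The chromosome 13 array and the chromosome 2 arrays showed other patterns. The array at chr13:18750172-18806900 had 2806, 3027 and 2964 CPM in WT, a narrow range, and 929, 1452 and 5154 in KO, with values on both sides of it. Its counterpart on an alternate contig had 2495, 3124 and 2985 CPM in WT and 812, 1217 and 5041 in KO. On chromosome 2, 4 clusters of about the same length each held 2 MSTA and 2 MSTA-int rows with at least 10 counts. The cluster at chr2:131278371-131283549 had most counts, with 1975, 1402 and 1589 CPM in WT and 766, 1472 and 2121 in KO, and the KO range enclosed the WT range. The cluster at chr2:130671706-130676903 had 1083, 2649 and 1264 CPM in WT and 296, 1086 and 1756 in KO, again with overlap. The cluster at chr2:130444622-130449819 had 1757, 1257 and 1415 CPM in WT and 1082, 902 and 875 in KO, with every KO library lower. The cluster at chr2:130053912-130059106 had 655, 531 and 495 CPM in WT and 722, 860 and 1539 in KO, with every KO library higher. Of the 4 clusters, 2 thus overlapped between genotypes, 1 was lower and 1 was higher in KO. A smaller chromosome 9 array at chr9:64440545-64461581 had 678, 79.3 and 55.8 CPM in WT and 995, 1290 and 1671 in KO, where every KO library was higher.

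Single rows were compared in a fit over 3127 repeat loci, of which 103 were THE1 or MST; the other 4299 members with counts did not pass the filter. None of the 103 was called by edgeR (all loci 0.0959%), and 4 had an unadjusted p under 0.05 (all loci 7.48%). DESeq2's Wald test called 2, against 5.82% of the 2990 loci to which it gave an adjusted p. Genotypes did not overlap for 12 of 103 rows, 10 higher and 2 lower in KO. Over all loci tested the share was 15.1%, with 273 higher and 200 lower. The locus fit had TMM factors of 1.38, 1.37 and 1.46 in WT and 0.69, 0.67 and 0.78 in KO. CPM of clusters and groups used the factors of the subfamily fit, 0.88 to 1.07. The direction of a row can therefore differ between these scales. The median fitted change was 1.16 against 0.12 over all loci. With library totals in place of TMM the medians moved together to 0.28 and −0.77.

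The 8 rows with the highest means among those with counts in at least 4 libraries were all MSTA or MSTA-int. The printed MSTA-int row at chr2:130675902-130676903 had 524, 742 and 457 counts in WT against 173, 787 and 1428 in KO. Its near-identical copy at chr2:131282551-131283549, in an intron shared by PLEKHB2 and the lncRNA gene ENSG00000290654, had 815, 374 and 466 in WT and 187, 817 and 1316 in KO. Both had their lowest value in KO 1 and their highest in KO 3, and their changes of 0.68 ± 0.95 and 0.78 ± 0.93 (SE) were smaller than their errors. The MSTA row at chr2:131278371-131280629, in an exon of ENSG00000290654, was the steadiest, with 433, 262 and 287 counts in WT against 390, 242 and 397 in KO. The MSTA row at chr2:130444622-130445862 had 870, 115 and 488 in WT and 183, 650 and 691 in KO, and that at chr13:18796484-18798616 had 470, 730 and 1.25 in WT and 305, 1.4 and 412 in KO.

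The rows with the smallest p-values were few. Higher in KO were the MSTA-int and MSTA rows of the chromosome 9 array given above and the MSTA row at chr2:130053912-130055152, with 128, 103 and 148 counts in WT against 183, 388 and 978 in KO (2.26 ± 1.11, SE). Lower in KO was the MSTA row at chr2:130671706-130673980, with 105, 208 and 159 counts in WT against 18.8, 8.75 and 6.92 in KO. Its change was −3.29 ± 1.28 (SE), with an edgeR adjusted p of 0.586 and a DESeq2 Wald adjusted p of 0.00807. It lies just upstream of the printed MSTA-int row, in which the genotypes overlapped. The MSTA row at chr21:13885180-13887289 had 13.97, 34 and 61.03 counts in WT against 4.00, 0 and 7.83 in KO, a change of −2.50 ± 0.98 (SE). The third lower row was a THE1D row on an alternate contig of chromosome 5, with 51.2, 44.5 and 0 counts in WT against 0, 0 and 13.9 in KO.

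Near-identical rows were joined to see whether the counts of a set were steadier than those of its rows. Rows with 50 counts or more were placed in 1 group when at least 95% identical over the shorter row and within 80% of each other's length. The 350 rows formed 154 groups, and 84.3% of rows lay in 99 groups of several rows that held 77.5% of member counts. Rows on alternate contigs were kept, so some groups join a row with its counterpart on such a contig. In the sums, as in the single rows, 1 library often dominated: at least 90% of counts came from 1 library in 45.4% of the 350 rows and in 46.1% of the 154 groups. Of these groups 55 hold 1 row only, and in the 99 groups of several rows the share was 44.4%. Among the 11930 other repeat loci with 50 counts or more the share was 48.8%. At least 10 counts in all 6 libraries were found for 8 of the 350 rows and 7 of the 154 groups. Of the 99 groups of several rows it was 6.

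The largest THE1B group consisted of 10 rows with a median length of 2.28 kb, each at most 698 kb from a chromosome end, on 8 chromosomes. It held 6586 of the 14977 THE1B counts, with 124, 1479 and 628 in WT and 1757, 0 and 2599 in KO. At library scale these were 186, 3080 and 1286 CPM in WT and 2029, 0 and 3168 in KO. All 10 rows were at 0 in KO 2, WT 2 and KO 3 were highest, and the genotypes overlapped. The row on chromosome 5 described above had 16.6, 234 and 28.7 counts in WT against 215, 0 and 476 in KO. The row on chromosome 1 described above, in an exon of the processed pseudogene ENSG00000230021, had 14, 183 and 192 in WT and 0.8, 0 and 346 in KO, so that the 2 rows differed in KO 1 and WT 3. Rows within 1 Mb of a main chromosome end were 1.15% of THE1 rows and held 3.87%, 44.8% and 22.3% of THE1 counts in WT against 21.4%, 2.39% and 31.7% in KO.

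Other THE1B groups were likewise present in some libraries of a genotype and not in others. A group of 5 rows on chromosome 16 had 167, 0 and 0 counts in WT against 650, 725 and 0 in KO. A group of 9 rows at GUSBP pseudogenes on chromosome 5 had 0.8, 37.7 and 0 in WT and 1273, 188 and 0 in KO. A pair of rows in RSRP1 on chromosome 1 had 53.2, 0.28 and 0 in WT and 242, 228 and 0 in KO. In these 3 groups KO 1 and KO 2 were above all WT libraries and KO 3 was at 0. Other THE1B groups did not share this pattern. A pair on chromosome 16 and its alternate contig had 634 counts, all in KO 1. A pair on chromosome 21 and its alternate contig had 554.5 counts, all in KO 3. Another pair on chromosome 16 and a contig had 314.5 counts, all in WT 1. Across the 864 THE1B rows under 50 counts the levels were 502, 672 and 304 CPM in WT and 601, 634 and 520 in KO, with overlap.

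Outside the rows of 50 counts or more, THE1 and MST levels lay closer together across libraries. THE1 rows under 50 counts had 1225, 1478 and 874 CPM in WT and 1282, 1539 and 1505 in KO, and MST rows had 1774, 1649 and 1408 in WT and 1473, 2051 and 1366 in KO. The log2 ratios of the means were 0.27 for THE1 and 0.02 for MST, and the genotypes overlapped in both. Among the tested subfamilies with rows on both sides of 50 counts, MSTA alone had genotypes that did not overlap in the lower class. Its 880 rows under 50 counts had 890, 949 and 838 CPM in WT and 635, 795 and 582 in KO, every KO library being lower. THE1A and MSTB2, with rows under 50 counts only, had every KO library higher. Over all their rows, 16.8% of all subfamilies tested had genotypes that did not overlap. The split at 50 counts was made on the same counts and carries no test.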

How the data were processed

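Per the labels and methods, the authors' pipeline used Trimmomatic 0.39 for trimming, HISAT2 2.1.0 for alignment to hg38, Picard for duplicate removal and featureCounts for the counts over repeat elements. The deposited values are estimated counts per element and library: of the 6662 non-zero values of THE1 and MST rows, 38.4% were whole and 32.9% below 1. Counting options for strand and for reads with several positions are not given in the sources used here. Counts were summed per subfamily, rounded, and KO was compared with WT by edgeR 4.0.16 (quasi-likelihood, TMM, filterByExpr, prior count 2) over all 573 subfamilies or 3127 loci of the 4 repeat classes, two-sided, with Benjamini–Hochberg adjustment and calls at an adjusted p under 0.05. SE was derived from the fitted change and its F statistic. The biological coefficient of variation was 0.880 for subfamilies and 1.21 for loci. CPM divides counts by the TMM-scaled total of tested subfamilies. DESeq2 1.42.0, other scalings and filters, and each library left out were alternatives. Named loci were every called row, the 8 with the highest mean among rows with counts in at least 4 libraries, and the 3 smallest p-values in each direction. All tested subfamilies are named. Members and lists were chosen with earlier results of these data known. Sequences and windows came from hg38, and some of the sequences are not reported here. Gene context came from GENCODE 44, a later release than the study named. No column was left unmapped, and the mouse libraries were not used here beyond the search for members.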

Additional observations from a re-analysis of the deposited data

How the results depend on the processing

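No THE1 or MST subfamily or locus was called in any of 13 of the 14 alternatives; DESeq2's Wald test called 1 subfamily (MSTD, log2 change −2.67, adjusted p = 0.00223) and 2 loci (MSTA-int at chr9:40308254, 9.23, adjusted p = 1.23e-05; MSTA at chr2:130671706, −3.44, adjusted p = 0.00807). Over the alternatives the adjusted p ranged from 0.00223 to 0.445 for MSTD, from 1.23e-05 to 0.808 for the MSTA-int locus and from 0.00807 to 0.968 for the MSTA locus. With the replicate number as a block, 0 subfamilies and 0 loci were called, and the MSTD change was −2.84 (adjusted p = 0.147). Deviations of same-numbered libraries correlated at −0.05, 0.04 and −0.09, which does not settle whether they were processed together. THE1C changed sign with the replicate block (0.31), with rows that have consensus positions (0.52), and in leave-one-out fits (−0.92 to 0.87). MSTB changed sign with those rows (−0.066). THE1D-int, fitted at −0.01, became 0.061 with library totals, 0.0089 without the 10 highest elements, 0.59 on main chromosomes and 0.0061 with rows that have consensus positions, and ranged from −0.65 to 0.33 in leave-one-out fits. Leave-one-out fits also changed the sign of MST-int (−3.52 to 4.18), of MSTA1 (−3.79 to 5.47) and of MSTA at chr13:18796484 (−1.25 to 0.31). With library totals, which moved the median of all loci to −0.77, the changes of MSTA-int at chr2:130675902 (−0.26) and chr2:131282551 (−0.17) and of MSTA at chr2:130444622 (−0.53) and chr2:131278371 (−0.60) were below 0. The other subfamilies kept their sign in leave-one-out fits, with ranges of 0.38 to 0.94 for THE1A, 0.69 to 1.53 for THE1B, 0.29 to 2.74 for THE1B-int, 0.34 to 1.33 for THE1D, −0.58 to −0.13 for MSTA, 0.0010 to 0.86 for MSTA-int, 0.52 to 2.30 for MSTB, −3.19 to −0.86 for MSTB1, 0.82 to 1.55 for MSTB2, −2.82 to −0.080 for MSTC and −3.52 to −2.14 for MSTD. The cause of these changes was not tested. Leaving out each library, the log2 ratio of shares ranged from 0.42 to 0.89 for THE1 and from −0.42 to 0.12 for MST. Restricting to main chromosomes and to rows with consensus positions was chosen after seeing the data. Every row carries 1 subfamily name, so the planned restriction to such rows gave no other value. Depth limits single rows: of the 4402 members with counts, 103 could be tested.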
